A study of Mus musculus with 2 samples.

Results

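The cells described here are those that the authors named Basal in the normal anorectal library. They make up 27.4% of the 939 named cells of that library, in which 682 cells have other names, and the libraries together hold 5086 named cells. They were chosen by the cluster name deposited for each barcode, and their levels come from the deposited counts of unique molecular identifiers (UMIs), each of which stands for 1 captured RNA molecule. The 682 other named normal cells were 187 Suprabasal, 432 Anal Canal and 63 Rectum cells. Both libraries held epithelial cells sorted from the anorectal junction of C57/BL6J mice that carried K17CreERT2;R26RGFP, in which tamoxifen switches on a reporter in cells with an active Krt17 promoter, and all mice were given tamoxifen. The normal library was a pool of at least 5 mice without a wound, and the wounded library held cells taken 1 week after hot EDTA and mechanical removal of rectal crypts in mice of 2 to 4 months. For lineage tracing in normal and injured mice an age of 6 to 8 weeks is stated, and whether it also holds for the mice of the normal library is not stated. The sort kept cells with Epcam and left out those with CD45, CD11b, CD31 or PDGFRa. The authors also took out normal cells with Lgr5, Lhx2 or Tbx1, so low levels of these genes are no finding. Each condition was sequenced as 1 library and the clusters were made from the same cells, so there was no replicate check and no test, and all values describe these libraries.

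The transition zone lies where the squamous lining of the anal canal meets the glandular lining of the rectum. In a stratified epithelium, basal cells sit on the basement membrane, divide, and carry keratins 5, 14 and 15 and the hemidesmosome proteins that anchor them, whereas the cells above them stop dividing and switch on differentiation genes. JunB is a subunit of AP-1, a family of paired Jun, Fos and Atf factors. Its gene is one of the immediate-early genes, which are transcribed quickly after growth signals, injury or stress, enzymatic dissociation of tissue included.

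The Basal cells held 2705001 UMIs, with a median of 9971 per cell (lowest 1536, highest 27863), 2544 detected genes and 4.77% mitochondrial UMIs. The median was 11543 UMIs in Suprabasal, 8438 in Anal Canal and 10885 in Rectum cells. No barcode of a named cell was shared between the libraries, and 1 normal Basal barcode was found among all barcodes of the wounded library. Levels below are the summed UMIs of a gene in all cells of one name, per 1000000 UMIs of those cells (CPM). Ratios are log2 ratios of such levels, with the exact binomial 95% interval in brackets, which covers counting error only and not the variation between mice. A gene is called higher or lower where the levels differ at least 2-fold. Fewer cells with a gene and less RNA of it per cell give the same summed level.

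The name was first checked against 4 markers. Krt15 (chr11:100131758-100135928, minus strand), positions in GRCm38, encodes a basal keratin and was at 2878 CPM in Basal cells, 2493 in Anal Canal, 439 in Suprabasal and 29.8 in Rectum cells. Krt5 (chr15:101707070-101712898, minus strand), a basal keratin that pairs with keratin 14, was at 2123 CPM in Basal, 3829 in Anal Canal, 929 in Suprabasal and 29.8 in Rectum cells. Col17a1 (chr19:47646344-47692094, minus strand), a collagen of the hemidesmosome, was at 176, 284 and 39.4 CPM in the first 3 of these clusters and had 0 UMIs in Rectum. These genes set the Basal cells apart from the upper layer and the rectum, but Krt5 and Col17a1 were higher still in the Anal Canal cells. Junb (chr8:84974484-84978718, minus strand) was at 1079.9 CPM in Basal cells, 252 in Suprabasal, 259 in Anal Canal and 200.2 in Rectum cells. Over all 682 other cells the ratio was 2.10 (2.02 to 2.19) for Junb, 0.83 (0.79 to 0.87) for Krt15, -0.27 (-0.32 to -0.23) for Krt5 and -0.04 (-0.20 to 0.11) for Col17a1. Of the 4 markers, 1 was therefore called higher over the other cells (background 6.04% of 9544 genes with at least 50 UMIs in the pooled groups), and 4 of 4 were over Suprabasal (background 13.8% of 7123 genes).

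Shares of cells with a UMI were taken after each cell was thinned to 2000 UMIs, which left 255 Basal, 183 Suprabasal, 397 Anal Canal and 60 Rectum cells. Krt15 was seen in 85.9% (81.0 to 89.9) of Basal, 64.5% of Anal Canal and 29.5% of Suprabasal cells. In Rectum cells, which should lack this keratin, the share was 6.67%, which was taken as the background, and its source was not tested. Before thinning the shares were 94.6%, 74.1%, 50.8% and 22.2%. Junb was seen in 50.6% (44.3 to 56.9) of Basal, 31.7% of Suprabasal, 32.0% of Anal Canal and 26.7% of Rectum cells, or 77.4%, 63.6%, 63.7% and 55.6% before thinning. Junb thus differed more in level than in the share of cells. Per Basal cell it ranged from 0 to 8021 CPM, with a median of 319 and quartiles of 65.1 and 1225. Krt15 ranged from 0 to 12814 CPM, with a median of 2471 and quartiles of 1057 and 4178.

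**Figure D1:**
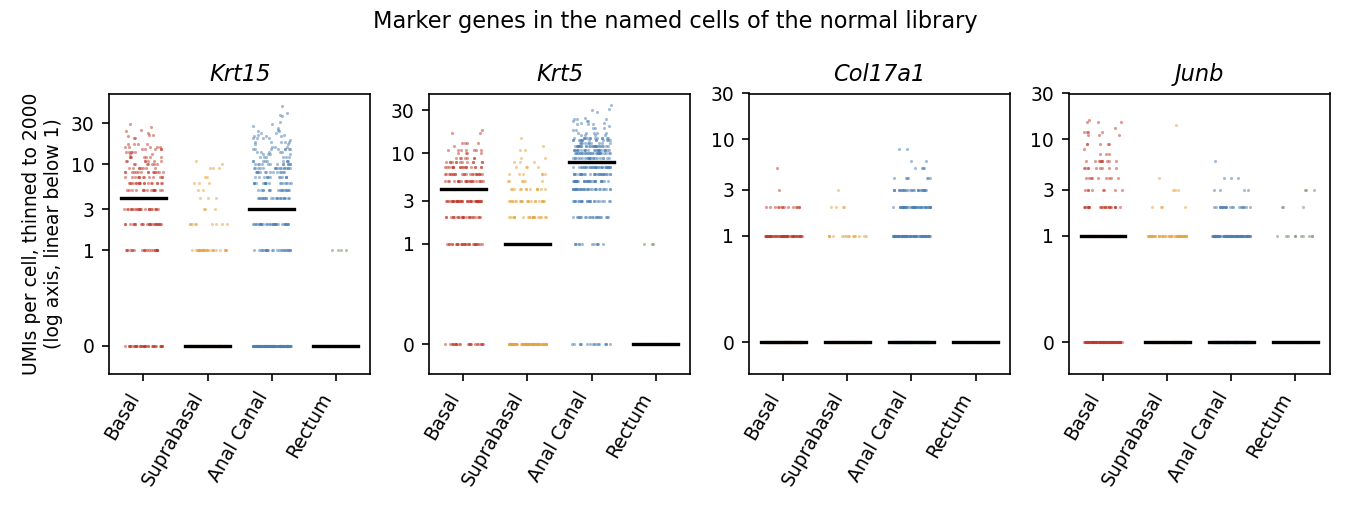
UMIs of Krt15, Krt5, Col17a1 and Junb in each named cell of the normal library after thinning to 2000 UMIs (vertical log axis, linear near 0), by deposited cluster; each point is a cell and the black line is the median. The medians of Krt15 and Krt5 were 4 and 4 UMIs in Basal against 3 and 8 in Anal Canal cells, and that of Junb was 1 UMI in Basal and 0 in Anal Canal cells.

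Among the Basal cells, 5 stood apart. They held 15 to 116 UMIs each of Chga (chr12:102554969-102565028, plus strand), which encodes chromogranin A, a protein of hormone granules, and the other 252 held none. They carried 99.7% of the Chgb, 99.5% of the Pyy and 99.3% of the Pcsk1n UMIs of the Basal cells. Chgb encodes another granin, Pyy a gut hormone and Pcsk1n a small protein of neuroendocrine cells. None of the 5 had more than 3 UMIs of Krt5, Krt14 and Krt15 together, and each had 0 UMIs of Krt17, Trp63 and Col17a1. The other 252 Basal cells had at least 10 UMIs of these 3 keratins, with a median of 92. Elsewhere a UMI of Chga was found in 1 Suprabasal, 5 Anal Canal and 2 Rectum cells. The 5 cells go against the marker check, but the deposited name includes them, so they were kept, and values without them are given where they change a result.

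Without these 5 cells, UMIs of several glandular and posterior genes nearly vanished from the Basal cells. Krt20, a keratin of gut epithelium, went from 50 to 4 UMIs and Krt19 from 72 to 10. Hoxb13, a posterior homeobox gene, went from 47 to 3 UMIs, and Isl1, a homeobox factor of endocrine and nerve cells, from 36 to 0. Krt8, a main keratin of glandular cells, went from 211 to 130 UMIs and so was also present in the rest. Junb and Krt15 hardly moved, at 1084 and 2917 CPM in the 252 cells.

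Markers of cell types that the sort should leave out were near 0. The 7 fibroblast markers summed to 78 UMIs in Basal cells, of which Dcn, the gene of decorin, held 71, and Lum, Pdgfra and Pdgfrb had 0. The 7 immune markers summed to 30 UMIs, of which Cd74 held 28, and Ptprc, the gene of CD45, had 0. The 5 endothelial markers summed to 18 UMIs and the 6 melanocyte markers to 15. Genes of contractile cells were split. Tagln and Acta2, an actin-binding protein and an actin, were at 65.8 and 59.9 CPM in 48 and 57 Basal cells, with ratios of 2.81 (2.40 to 3.24) and 1.80 (1.45 to 2.14) over the other cells, and Myl9, a myosin light chain, had a ratio of 2.52 (1.72 to 3.36). The defining smooth muscle genes Myh11, Cnn1 and Des had 1, 1 and 0 UMIs. Of 8 genes of sebaceous-type glands, 7 had enough UMIs, 2 were higher and 1 lower over the other cells (6.04% and 8.63% of all genes tested), and the list summed to 711 CPM in Basal and 355 in the others, with Mgst1 the most abundant. The higher ones were Plin2, a lipid droplet protein, with a ratio of 2.70 (2.49 to 2.92) and UMIs in 110 cells, and Pparg, a factor of fat and sebaceous cells, with 1.70 (1.03 to 2.37) and UMIs in 22 cells. Of the gland genes, 2 of 6 were higher and 1 lower over Suprabasal (background 13.8% and 5.81%), with a median of -0.24. Over Anal Canal 3 of 7 were higher and none lower (background 8.07% and 7.07%), with a median of 0.92. The list summed to 441 CPM in Suprabasal and 309 CPM in Anal Canal cells. The part of gland cells in the other results was not tested.

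In all, 576 of 9544 genes were higher in Basal than in the other cells (6.04%) and 824 were lower (8.63%), with a median ratio of 0.01. Over Suprabasal, 984 of 7123 genes were higher (13.8%) and 414 lower (5.81%), with a median of 0.26. In the Suprabasal cells Cst6, a protease inhibitor gene, was at 87278 CPM, against 1437 in Basal cells. After centring on the median of all genes, 594 genes were higher and 613 lower over Suprabasal, so the excess of higher genes did not hold under that scaling. Over Anal Canal, 8.07% of 8461 genes were higher and 7.07% lower, and over Rectum 16.5% of 6391 genes were higher and 13.6% lower.

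AP-1 and other immediate-early genes were higher in Basal cells as a group. Of 9 AP-1 genes, 8 had enough UMIs and 8 of 8 were higher over the other cells (background 6.04%), with a median ratio of 2.30. Of 19 other immediate-early genes, 16 had enough UMIs and 14 were higher, with a median of 2.45. The same number, 14 of 16, was higher over Suprabasal, over Anal Canal and over Rectum alone, where 13.8%, 8.07% and 16.5% of all genes were higher. The AP-1 counts were 6 of 7, 8 of 8 and 5 of 7 in these comparisons, and no gene of either list was lower in any of them.

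The Jun and Fos subunits came first. Jun was at 1438 CPM in Basal cells, 362 in Suprabasal, 154 in Anal Canal and 234 in Rectum cells. Fos (chr12:85473890-85477273, plus strand) was at 2154, 298, 420.2 and 430.3 CPM in the same order. For both genes every other cluster stayed below the Basal level by more than 2-fold. Fosb and Jund had ratios over the other cells of 2.75 (2.54 to 2.96) and 1.26 (1.18 to 1.35). Jund was the subunit nearest to another cluster, with a ratio of 0.41 (0.26 to 0.57) over Rectum. Atf3 (chr1:191170296-191218039, minus strand), a stress-induced partner of Jun, was at 576 CPM in Basal cells against 37.2, 50.9 and 21.3 CPM, a ratio of 3.72 (3.54 to 3.89).

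Among the other genes of the class, Btg2 (chr1:134075170-134079120, minus strand), which slows cell division, was at 967 CPM in Basal cells, 109 in Suprabasal, 51.8 in Anal Canal and 138 in Rectum cells. Nr4a1 (chr15:101254269-101274795, plus strand), an orphan nuclear receptor, had a ratio of 4.07 (3.67 to 4.50) over the other cells. Socs3, a feedback inhibitor of cytokine receptors, had one of 3.74 (3.53 to 3.95), and Cyr61, a matrix protein, one of 3.41 (3.16 to 3.66). The transcription factors Klf2, Myc and Egr1 were at 2.92, 2.52 and 2.39, and Zfp36, which destabilises cytokine RNAs, was at 2.70. Klf4, which is also a gene of upper squamous layers, was not called, at 0.22 (0.07 to 0.37), and neither was Ier5, at 0.49 (0.16 to 0.80). Egr2 separated Basal cells (173 CPM) from Anal Canal (3.2 CPM) but not from Suprabasal cells (181 CPM).

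Heat-shock genes are another group that responds to stress. Of 11 genes, 2 were higher over the other cells (background 6.04%) and none lower, with a median ratio of 0.20. Over Suprabasal 3 of 10 were higher and 1 lower, over Anal Canal 2 of 11 were higher, and over Rectum 5 of 10 were higher, with medians of 0.75, -0.03 and 0.83. The background over these clusters was 13.8%, 8.07% and 16.5% higher. The 2 genes higher over the other cells were the co-chaperone Dnajb1, at 2.20 (2.0 to 2.39), and the inducible chaperone Hspa1a, at 1.62 (1.44 to 1.80). Reads of Hspa1a can be split with its near-identical copy Hspa1b, so its value is uncertain. The constitutive chaperone Hspa8 was at 0.20 (0.15 to 0.25).

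**Figure D2:**
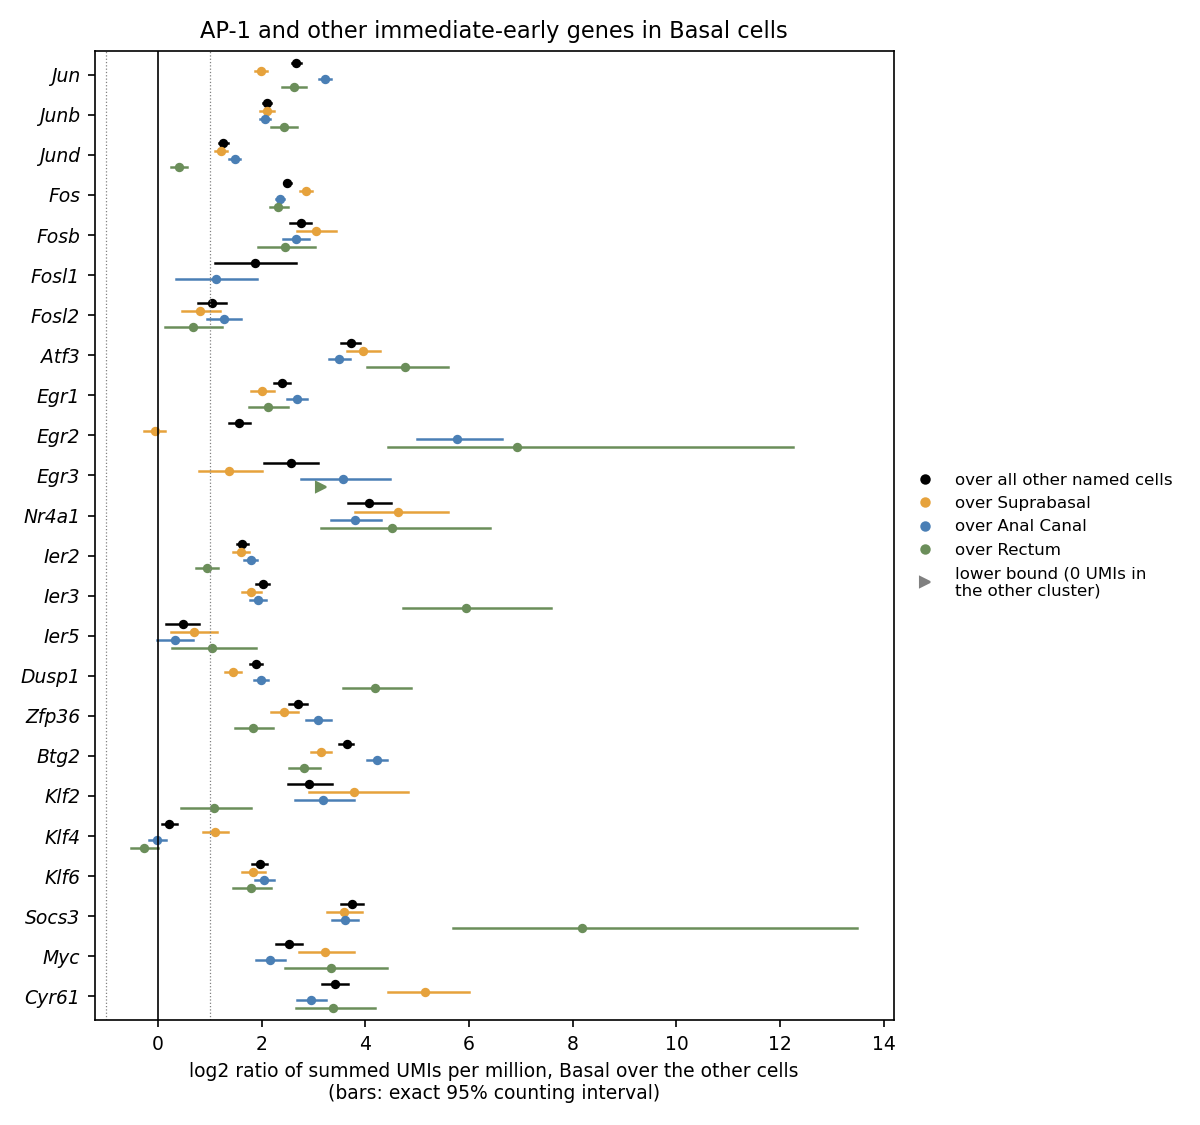
Log2 ratio of CPM of AP-1 and other immediate-early genes in Basal cells over all 682 other named normal cells (black), Suprabasal (orange), Anal Canal (blue) and Rectum cells (green), with exact 95% counting intervals; dotted lines mark 2-fold differences and arrowheads lower bounds. Over all other cells Klf4 and Ier5 (0.22 and 0.49) are the only points left of the 2-fold line, and over Suprabasal Egr2 (-0.06) lies near 0.

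These genes varied widely among the Basal cells. Summed over the 28 listed genes, a Basal cell held between 183 and 55285 CPM, with a median of 3598 and quartiles of 1296 and 17249. The medians were 1702 CPM in Suprabasal, 1246 in Anal Canal and 1797 in Rectum cells, whose upper quartiles were 2884, 2588 and 3292 CPM. The Basal median was exceeded by 16.0% of Suprabasal, 14.4% of Anal Canal and 22.2% of Rectum cells, so the clusters overlapped.

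Of 460 genes with a mean of at least 0.5 UMIs per thinned Basal cell, the median ratio of variance to mean was 1.27, and 72 genes were above 2. The 10 widest were Pyy (368, from the cells with Chga), Cst6 (38.7), the defensin Defb6 (19.5), the metallothionein Mt1 (13.7), the lipid carrier Apoe (12.2), the mitochondrial genes mt-Atp6 (10.9) and mt-Co3 (9.58), Krt79 (9.41), Fos (8.66) and Actb (8.24). Cst6 and Krt79, a keratin of ducts, were both higher in Suprabasal cells, with ratios over them of -5.92 and -3.99, but varied only weakly together among Basal cells (Spearman's rho 0.27).

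Across the 255 thinned Basal cells, the 10 genes most like Junb by Spearman's rho were Fos (0.68), Btg2 (0.65), Jun (0.65), Atf3 (0.61), Mt1 (0.61), Egr1 (0.56), Bhlhe40 (0.52), Klf6 (0.52), Mt2 (0.50) and Zfp36 (0.50). Apart from the metallothioneins Mt1 and Mt2 and the clock-linked factor Bhlhe40, all are on the immediate-early lists. The 13 listed genes above the minimum had pairwise values from 0.27 to 0.76, with a median of 0.50 against 0.00 over all pairs of the 460 genes. All these cells share 1 library, and each was thinned to the same depth. With a cell's total UMIs before thinning Junb had a rho of 0.15, and with its mitochondrial share one of -0.21. For Fos these values were 0.22 and -0.32, for Btg2 0.20 and -0.31, for Atf3 0.25 and -0.30, and for Mt1 0.33 and -0.30. The part of cell quality in these correlations was not tested. Krt15 did not follow these genes, with a rho of -0.07 with Junb. Its closest gene was Ptn, a secreted growth factor, at 0.30, and with Krt5 it was 0.22.

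**Figure D3:**
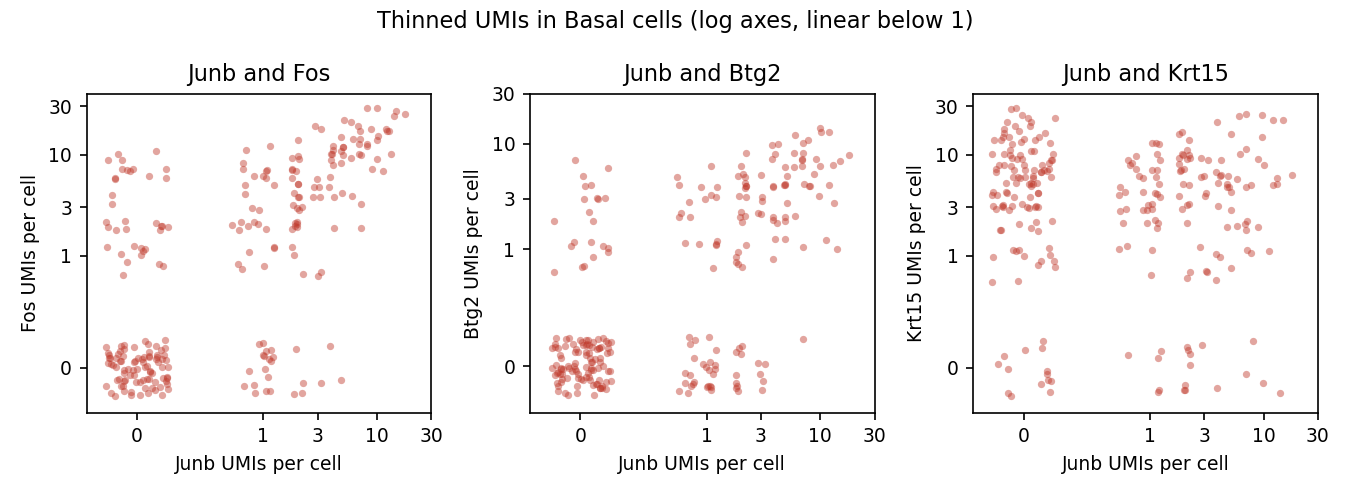
UMIs of Fos, Btg2 and Krt15 (vertical axes) against Junb (horizontal axes) in each of 255 Basal cells after thinning to 2000 UMIs, with small random shifts so that cells at the same count can be seen. Fos and Btg2 increase with Junb (rho 0.68 and 0.65), and Krt15 does not (-0.07).

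The 250 bases before the start sites of Junb, Fos, Btg2 and Jun are printed because Fos, Btg2 and Jun followed Junb most closely among these cells. They are RefSeq sequences of GRCm38.p6, 5′ to 3′ on the strand of the gene. Capitals mark each CGTCA or its reverse complement TGACG, the half-site of the cAMP response element.

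Junb (chr8:84978749-84978998, minus strand): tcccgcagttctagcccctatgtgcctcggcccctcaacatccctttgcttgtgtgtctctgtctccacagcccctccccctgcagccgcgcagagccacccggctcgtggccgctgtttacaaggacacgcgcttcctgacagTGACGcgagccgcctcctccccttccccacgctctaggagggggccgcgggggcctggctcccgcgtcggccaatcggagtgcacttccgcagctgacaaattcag

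Fos (chr12:85473640-85473889, plus strand): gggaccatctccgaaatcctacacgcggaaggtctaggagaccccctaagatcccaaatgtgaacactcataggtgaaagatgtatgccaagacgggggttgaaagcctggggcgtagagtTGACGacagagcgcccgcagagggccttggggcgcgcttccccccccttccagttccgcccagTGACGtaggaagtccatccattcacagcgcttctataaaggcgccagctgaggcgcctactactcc

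Btg2 (chr1:134079156-134079405, minus strand): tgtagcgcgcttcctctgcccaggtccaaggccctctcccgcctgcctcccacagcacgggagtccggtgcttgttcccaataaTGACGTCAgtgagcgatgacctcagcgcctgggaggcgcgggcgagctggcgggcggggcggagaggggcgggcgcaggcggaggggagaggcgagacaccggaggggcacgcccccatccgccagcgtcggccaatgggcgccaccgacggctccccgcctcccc

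Jun (chr4:95052223-95052472, minus strand): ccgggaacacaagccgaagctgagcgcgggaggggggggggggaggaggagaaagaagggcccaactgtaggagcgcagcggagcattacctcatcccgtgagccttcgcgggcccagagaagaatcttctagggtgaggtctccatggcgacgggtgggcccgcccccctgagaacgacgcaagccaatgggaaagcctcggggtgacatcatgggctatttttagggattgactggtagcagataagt

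The half-sites began 106 bases before the start of Junb, 129 and 66 bases before that of Fos, and 166 and 163 bases before that of Btg2, where they overlap in the full element TGACGTCA. The window of Jun held neither form of the half-site. Promoters were found for 9 of 11 genes (Junb and the 10 most like it). The half-site was in 5 of the 9 (Junb, Fos, Btg2, Atf3 and Mt1) and in 17.8% of all 32851 promoter windows of this length. TGACGTCA, which contains the half-site, was in 1 of the 9 and in 1.55% of all. The AP-1 site TGACTCA, on either strand, was in 1 of the 9 (Mt2) and in 4.46% of all.

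The keratins came next. Krt14 was at 5399.6 CPM in Basal, 6877 in Suprabasal and 11880.4 in Anal Canal cells, and none of the 3 basal keratins was called over the other cells together. Of the keratins of wounds and stress, 3 of 4 were lower over the other cells (background 8.63%) and all 4 were lower over Suprabasal (background 5.81%). Krt17 was at 2265 CPM in Basal, 9389 in Suprabasal, 704 in Anal Canal and 36.9 in Rectum cells, with a ratio of -2.05 (-2.09 to -2.01) over Suprabasal and 1.69 (1.62 to 1.75) over Anal Canal. Krt6a was at 182 CPM in Basal, 1338 in Suprabasal and 1725 in Anal Canal cells, and Krt16 at 27.0, 144 and 503 CPM. Krt6a shares sequence with Krt6b, so its level is less certain. Of 9 keratins of upper layers, 7 had enough UMIs and all 7 were lower over the other cells (background 8.63%), with a median of -4.83. Krt4 (chr15:101918535-101924735, minus strand) and Krt13, the pair of mucosal squamous epithelia, had 4 and 8 UMIs in all Basal cells, against 3786 and 3557 in Anal Canal cells. Krt1, a keratin of the upper epidermis, was at 17.4 CPM against 2286 in Anal Canal cells. Krt79 was the exception, higher than in Anal Canal cells (2.99, interval 2.77 to 3.2) and lower than in Suprabasal cells.

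Other differentiation genes were low as well, but not against Rectum cells. Of 20 listed, 16 had enough UMIs, 13 were lower over the other cells and none higher (background 8.63% lower), with a median of -3.84. Over Suprabasal 12 of 12 were lower (background 5.81%). Over Anal Canal 9 of 15 were lower and 2 higher (background 7.07% and 8.07%). Against Rectum cells 8 of 9 were higher and 1 lower (background 16.5% and 13.6%). Krtdap, a secreted protein of differentiating keratinocytes, was at 183 CPM in Basal, 8756 in Suprabasal and 3797 in Anal Canal cells. Sprr1a, a protein of the cornified envelope, was at 61.0, 1749 and 468 CPM in the same order. Ly6d, a surface protein of keratinocytes, was the most abundant of the list in Basal cells, at 2365 CPM against 4829.9 and 2681, and was not called over the other cells (-0.39, interval -0.43 to -0.35).

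Of 9 hemidesmosome and integrin genes, which anchor cells to the basement membrane, none was called over the other cells together (median -0.04), while over Suprabasal 6 of 8 were higher (background 13.8%), with a median of 1.48. Over Anal Canal none of 8 was higher and 1 was lower (background 8.07% and 7.07%), and over Rectum 3 were higher and 1 lower (background 16.5% and 13.6%). Dst, which links keratin filaments to the hemidesmosome, was at 125 CPM in Basal, 18.4 in Suprabasal and 144 in Anal Canal cells. Itgb1, an integrin chain, had a ratio of 1.63 (1.27 to 2.01) over Suprabasal. Lamb1, a laminin chain, was the 1 of 9 measurable basement membrane genes higher over the other cells (background 6.04%), at 2.49 (1.61 to 3.42) on 35 UMIs. In that list 5 of 8 genes were higher over Suprabasal, 1 of 9 over Anal Canal and 6 of 6 over Rectum (background 13.8%, 8.07% and 16.5%), with medians of 1.31, -0.19 and 1.84. Desmosome genes, which join cells to each other, had the opposite order, with 6 of 10 lower than in Suprabasal cells (background 5.81%). Dsp, the desmosomal plaque protein, was at 281 CPM in Basal and 916 in Suprabasal cells, and Dsg1a, a desmoglein of upper layers, had 0 UMIs in Basal and 122 in Suprabasal cells. Dsg2, a desmoglein of lower layers, was higher, at 1.68 (1.11 to 2.28). Of the claudins, Cldn1 was higher than in Anal Canal cells (1.91, interval 1.43 to 2.40), and Cldn3, Cldn4 and Cldn7 were lower over the other cells together (-3.34, -1.98 and -3.36). Without the 5 cells with Chga these ratios were -7.23, -3.66 and -6.75, on 1, 17 and 3 UMIs. Cldn1 was not called over the other cells without those 5 cells, at 0.28 (-0.04 to 0.59).

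Of 24 transcription factors of stratified epithelia, 3 were higher over the other cells and 7 lower (background 6.04% and 8.63%), with a median of -0.55. Trp63, which stratified epithelia need to form, was at 233 CPM in Basal and 104 in Suprabasal cells, and the ratio over Anal Canal was 0.22 (0.07 to 0.37). Tfap2b (chr1:19208914-19238576, plus strand), a factor of the AP-2 family, was at 64.0 CPM in Basal and 10.3 in Anal Canal cells, a ratio over all other cells of 2.21 (1.85 to 2.58) and over Suprabasal of 1.36 (0.92 to 1.81). Sox9 (chr11:112782224-112787760, plus strand), known from hair follicle stem cells, was at 156 CPM in Basal, 132 in Suprabasal and 25.3 in Anal Canal cells. The log2 ratio of Sox9 was 2.62 (2.32 to 2.94) over the anal canal and 0.24 (0.02 to 0.46), under 2-fold, over Suprabasal cells. Sox2 had the reverse order, at 3.33 CPM in Basal and 36.1 in Anal Canal cells, and Grhl3, a factor of upper layers, was lower over the other cells at -3.17 (-4.64 to -2.01). Irx4 (chr13:73260479-73269608, plus strand), a homeobox factor known from the heart, was at 49.5 CPM in Basal, 7.01 in Suprabasal and 1.14 in Anal Canal cells and was seen in 99 Basal cells.

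Intestinal factors were near 0. Of 14, 9 had 0 UMIs in Basal cells, Cdx2 among them, and 5 of the 6 with enough UMIs were lower over the other cells (background 8.63%). Gata6 was the sixth, with 54 UMIs in Basal cells and ratios of -0.76 (-1.29 to -0.24) over Suprabasal, 2.28 (1.49 to 3.14) over Anal Canal and -1.23 (-1.88 to -0.56) over Rectum. Of 17 posterior Hox genes, which mark position along the body, 9 had enough UMIs. Hoxd8 and Hoxd9 were higher over the other cells, at 1.89 (1.26 to 2.52) and 2.18 (1.36 to 3.04), and 5 were lower (background 6.04% and 8.63%). Hoxa9 was the most abundant in Basal cells, at 65.8 CPM with a ratio of 0.23 (-0.03 to 0.48). For Hoxb13 the ratio was -2.18, and -6.13 without the cells with Chga.

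Of 27 genes of the BMP and TGF-beta pathways, 20 had enough UMIs, 7 were higher over the other cells and 3 lower (background 6.04% and 8.63%), with a median of 0.62. Among ligands, Tgfb3 was higher at 3.74 (2.68 to 4.96) on 44 UMIs, and Bmp2 and Bmp4 were lower at -3.16 (-5.47 to -1.56) and -2.14 (-3.81 to -0.84). Tgfbr3, a co-receptor, was higher at 2.25 (1.82 to 2.69). Fst (chr13:114452290-114458951, minus strand) encodes follistatin, a secreted inhibitor that binds activins, and was at 201 CPM in Basal, 35.5 in Suprabasal and 18.0 in Anal Canal cells, with 0 UMIs in Rectum. Of known targets, the matrix protein Thbs1 was at 2.73 (2.25 to 3.24). Id1, a target of BMP signals, was at 1.12 (0.96 to 1.27), but the other Id genes of the list did not share this. Without the 5 cells with Chga, Id1 was at 1.07, Id2 at 0.02, Id3 at 0.18 and Id4 at -1.11 (-1.66 to -0.61).

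Sostdc1 (chr12:36314139-36318452, plus strand), a secreted antagonist of BMP and Wnt signals, was the 1 of 8 measurable stem cell markers that was higher over the other cells (background 6.04%). It was at 224 CPM in Basal, 39.9 in Suprabasal, 52.3 in Anal Canal and 1.42 in Rectum cells, and it was seen in 161 Basal cells. Ly6a and Procr were lower, at -2.25 (-2.51 to -2.0) and -2.85 (-4.09 to -1.84), and Cd34, a marker of the hair follicle bulge, was not called, at 0.52 (0.00 to 1.02). Of 33 Wnt genes, 15 had enough UMIs, 4 were higher and 2 lower (background 6.04% and 8.63%), with a median of 0.16. The ligand Wnt6 was higher at 2.35 (1.84 to 2.89), and Wnt4 and Wnt7b were lower at -1.09 (-1.34 to -0.84) and -3.65 (-5.11 to -2.50). The receptor Fzd7 was higher at 1.28 (0.89 to 1.67), as were the secreted inhibitors Dkk3 and Sfrp1 at 2.37 (1.72 to 3.05) and 1.76 (1.56 to 1.95).

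In the Notch list, 3 of 10 measurable genes were higher and 1 lower over the other cells (background 6.04% and 8.63%). These were the ligand Dll1 (1.77, interval 1.22 to 2.32), the receptor-modifying enzyme Lfng (1.81, interval 1.34 to 2.28) and the target Hey1 (1.62, interval 0.77 to 2.47), with the feedback inhibitor Nrarp lower (-1.23, interval -1.61 to -0.87). In the EGF list, 1 of 8 was higher and 1 lower over the other cells (background 6.04% and 8.63%). The higher one was the receptor inhibitor Errfi1 (2.26, interval 1.92 to 2.62), and the lower one the ligand Areg (-2.29, interval -3.03 to -1.64).

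**Figure D4:**
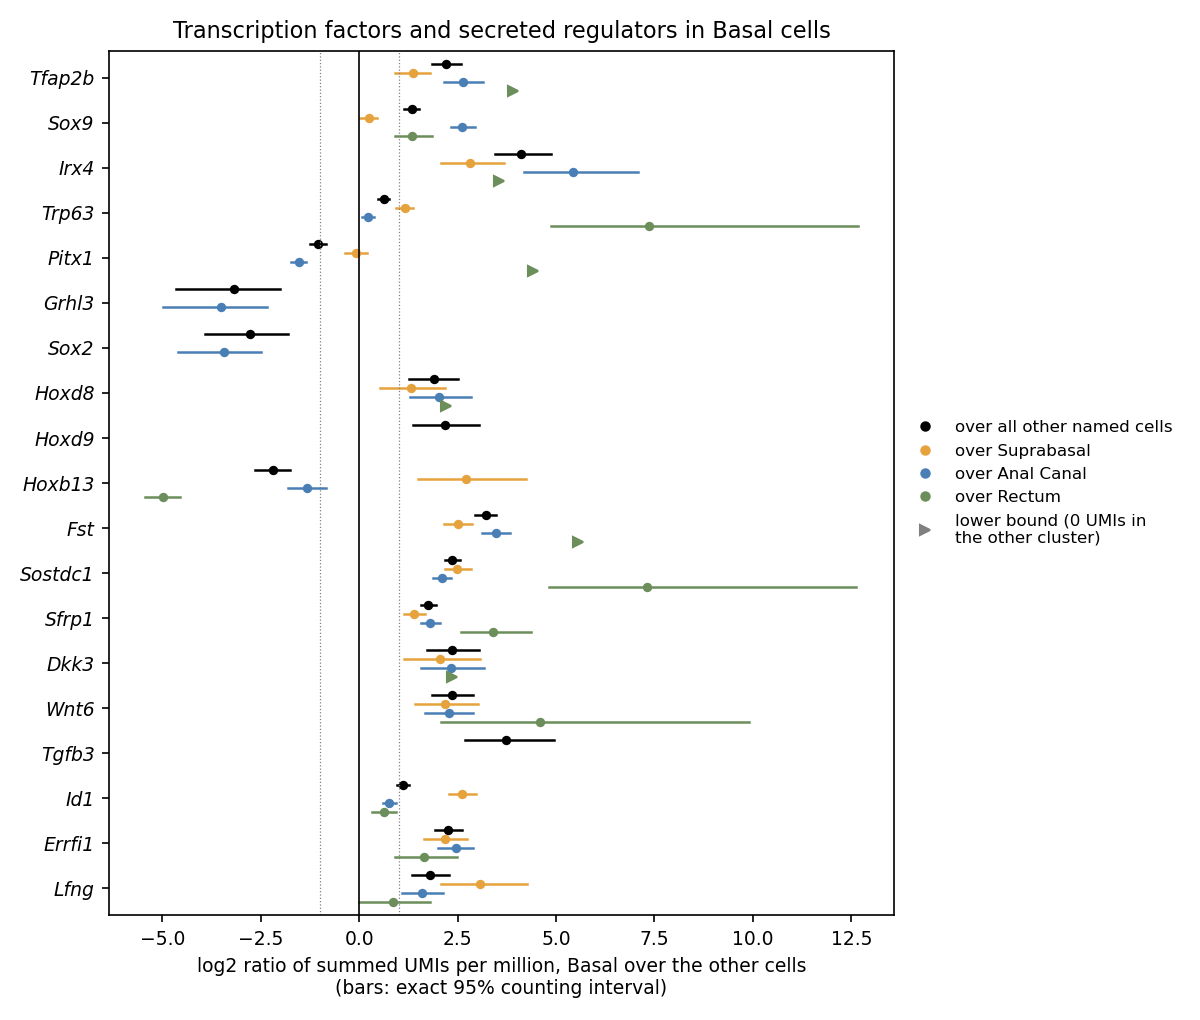
Log2 ratio of CPM for transcription factors and secreted regulators in Basal cells over all 682 other named normal cells (black), Suprabasal (orange), Anal Canal (blue) and Rectum cells (green), with exact 95% counting intervals; dotted lines mark 2-fold differences and arrowheads lower bounds. Sox9 lies near 0 over Suprabasal (0.24) and far right of the 2-fold line over Anal Canal (2.62).

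Of 21 cytokine and host defence genes, 12 had enough UMIs, 7 were higher over the other cells and 4 lower (background 6.04% and 8.63%), with a median of 1.40. Over Anal Canal 8 of 11 were higher and 2 lower (background 8.07% and 7.07%). Over Suprabasal 3 of 8 were higher and 1 lower (background 13.8% and 5.81%), with a median of 0.83. The list summed to 1779.3 CPM in Basal and 2384.3 CPM in Suprabasal cells. Cxcl1, which attracts neutrophils, was at 3.69 (3.2 to 4.21), but 5 cells held 70.4% of its 199 UMIs. Cxcl14, a chemokine of epithelia at rest, was at 238 CPM in Basal, 131 in Suprabasal and 16.2 in Anal Canal cells and was seen in 153 Basal cells. Lcn2, an antibacterial protein that binds siderophores, was at 694, 700.1 and 13.0 CPM in the same order and so was shared with Suprabasal cells. S100a8 and S100a9, a pair of antimicrobial calcium-binding proteins, were lower over the other cells at -1.84 (-2.39 to -1.33) and -5.96 (-11.28 to -3.47). The serum amyloid gene Saa1 was lower as well, but its ratio turned to 2.81 among cells under 10% mitochondrial UMIs. Saa3, another serum amyloid gene of the list, went the other way. Without the 5 cells with Chga it was at 6.05 (4.45 to 8.36), on 72 UMIs.

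Cell-cycle genes, whose scores the authors regressed out before clustering, did not set the Basal cells apart from the other cells together. None of 16 S-phase genes (median -0.13) and none of 20 genes of G2 and mitosis (median 0.09) was called. Over Suprabasal, 7 of 16 and 13 of 18 were higher (background 13.8%). Mki67, a marker of cycling cells, was at 70.2 CPM in Basal, 23.7 in Suprabasal and 63.7 in Anal Canal cells. After thinning it was seen in 8.63% (5.49 to 12.8) of Basal and 11.1% (8.17 to 14.6) of Anal Canal cells, a difference within the counting intervals. The D cyclins, which start the cycle, differed from each other, with Ccnd1 at -3.09 (-3.75 to -2.50) and Ccnd2 at 0.92 (0.80 to 1.03) over the other cells.

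ZsGreen1, the reporter, was seen in 13 Basal cells (5.06%) before thinning, 5.88% of Suprabasal, 3.94% of Anal Canal and none of the 63 Rectum cells. After thinning 1 Basal cell kept a UMI, a share of 0.392% (0.00993 to 2.17), so no difference between clusters was detectable at this depth.

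Among genes with at least 100 UMIs in the cells on the higher side, the 15 with the highest ratios over the other cells included Pcsk1n (8.55), Chgb (at least 8.36), Pyy (6.75), Chga (4.99), the long RNA Gm12840 (4.59), Irx4 (4.12), Nr4a1, the lipase gene Lpl (3.87), Cck (3.77), Socs3, Atf3, Cxcl1, Btg2 (3.64) and the factor Nfil3 (3.53). Without the 5 cells with Chga, the potassium channel Kcnk2 (3.47), Cyr61 (3.42), Heg1 (3.4) and the factor Cebpd (3.29) took the places of the 4 granule genes. Cck encodes the peptide cholecystokinin, but unlike Chga it was spread over 139 Basal cells, with at most 33 UMIs in any. Gm12840 was seen in only 32 Basal cells, and 5 cells held 46.0% of its 124 UMIs. The 10 lowest were Krt4 (-8.45), the iron-binding Ltf (-8.19), the mucin Muc3 (-8.13), Psca (-8.10), Sval1 (-7.90), the neuropeptide gene Calcb (-7.83), Gm94 (-7.66), the chemokine Ppbp (-7.59), Mptx1 (-7.37) and Krt13 (-7.36). Each had between 1 and 8 UMIs in all Basal cells.

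Over Suprabasal alone, the 5 highest without the cells with Chga included Cyr61 (5.17), Gm12840 (5.14), Nr4a1 (4.65) and Atf3 (3.97). With them Pyy (10.55), Chga (7.83), Chgb (at least 6.67) and Pcsk1n (at least 5.28) were among the 5. The lowest were Gm94 (-8.32), the protease inhibitor gene Spink5 (-7.90), the kallikreins Klk13 (-7.59) and Klk7 (-7.56), and the lipase gene Lipk (-7.26). Over Anal Canal, the 5 highest without the same cells were Ramp1 (7.09), the carbonic anhydrase relative Car8 (6.69), Kcnk2 (6.57), the small chaperone Cryab (6.52) and Chil1 (at least 6.19). With them Pyy (at least 9.90), Pcsk1n (7.80) and Chgb (at least 7.61) came before Ramp1 and Car8. Chil1 was seen in only 27 Basal cells, and 5 cells held 53.4% of its 133 UMIs. Ramp1, a part of the receptor for calcitonin gene-related peptides, was at 278 CPM in 184 Basal cells and at 2.05 CPM in Anal Canal cells. Calcb, which encodes such a peptide, had the opposite order, at 1.11 and 420.0 CPM, and was among the 5 lowest over Anal Canal (-8.56) with Krt4 (-9.19), Ltf (-8.93), Psca (-8.84) and Ppbp (-8.33).

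The wounded library was clustered separately and also has cells named Basal, 573 of them. There Junb was at 106 CPM and Krt17 at 381 CPM, against 1079.9 and 2265 CPM in normal Basal cells. Krt4, Krt10 and Sox2 were at 757, 1987 and 61.0 CPM in wounded Basal cells, against 1.48, 48.4 and 3.33 CPM in normal ones and 864, 2228 and 36.1 CPM in normal Anal Canal cells. In the 991 wounded cells named Regeneration, Junb was at 1091, Fos at 2671 and Krt4 at 1.46 CPM. For each of 8971 genes, the level in a cluster was set against the other clusters of its library, and these deviations were compared between the libraries across genes, which are not independent replicates. For normal Basal cells Spearman's rho was 0.59 with Regeneration, 0.42 with Wound_Stress, 0.08 with Suprabasal, -0.12 with Hybrid, -0.13 with Basal and -0.54 with Rectum cells of the wounded library. Between normal Anal Canal and wounded Basal cells it was 0.66. The name Basal therefore covers cells with different leading genes in the 2 libraries, and the wound, the pool of mice, the separate clustering and the processing cannot be told apart. The header of the wounded matrix names Cell Ranger 4.0.0 and lists 32285 features, against 3.1.0 and 31054 in the normal matrix.

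Of 574 genes that were higher in normal Basal over the other cells and measured in both libraries, 33.6% had their highest wounded level in Regeneration, 27.9% in Wound_Stress and 2.26% in Basal cells. Over all 9485 genes tested these shares were 9.0%, 14.7% and 12.6%. For wounded Basal over wounded Suprabasal cells, 9.19% of 10635 genes were higher and 8.54% lower, and the AP-1 list had 0 of 7 higher and 6 lower, with a median of -2.21 against 0.14 for all genes. The hemidesmosome list had 3 of 9 higher and none lower there, with a median of 0.93. Of 972 genes higher in the normal comparison of these names and tested in both, 170 were also higher in the wounded one and 121 were lower. Of 413 genes lower in the normal comparison, 178 were also lower in the wounded one and 26 were higher.

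**Figure D5:**
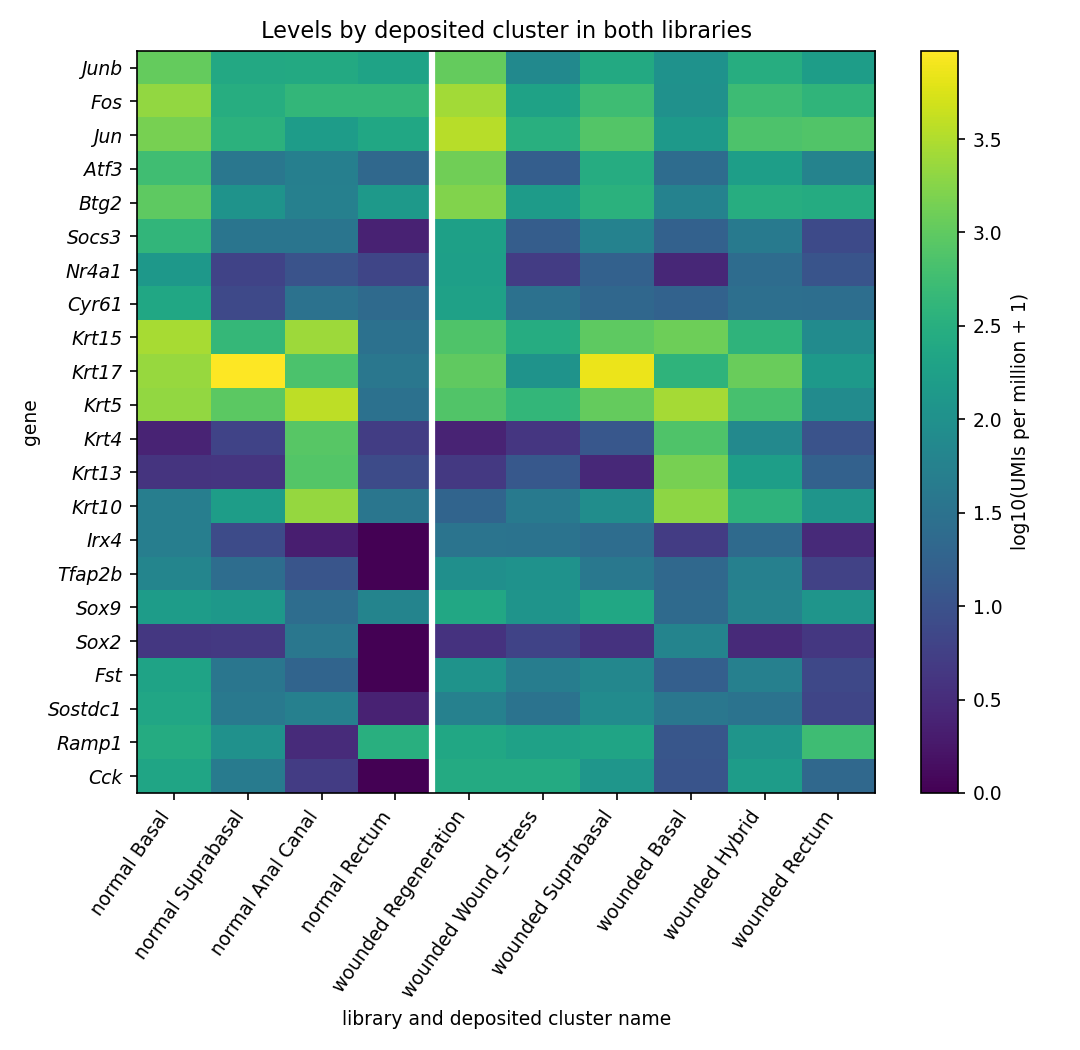
Level of 22 genes as log10 of CPM plus 1 in the 4 named clusters of the normal library and the 6 of the wounded library. Junb and Fos are high in normal Basal and wounded Regeneration cells (1079.9 and 1091 CPM for Junb), and Krt4 is high in normal Anal Canal and wounded Basal cells (864 and 757 CPM).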

How the data were processed

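RNA was measured by 3′ single-cell RNA sequencing on the 10x platform in 1 library per condition. According to the submitters' processing notes, the authors aligned reads to mm10 with Cell Ranger 3.1.0 and analysed the cells with Seurat 3.2.2, but the header of the wounded matrix names Cell Ranger 4.0.0. The deposited matrices hold UMI counts per gene and barcode. A deposited table of named cells holds, for 13787 genes, natural log values of whole numbers to which 1 was added, and it gave the cluster names and 1 alternative set of values.

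UMI counts were added up for all cells of one name and divided by their total. Ratios were kept for genes with at least 50 UMIs in the pooled groups, and a level of 0 UMIs was set to 3 counts, which makes the ratio a bound. Intervals are exact (95%) and cover counting error only. Doublets were scored with the Scrublet of scanpy 1.11.5. Named genes were those with the highest or lowest ratios among genes with at least 100 UMIs on the higher side, the genes most variable or most like Junb or Krt15, and members of lists. Some named items are not reported here. The cells and lists were chosen with earlier results of these data known. The procedure was tested on simulated data. Alternatives were other UMI minimums, scalings, thinning depths and sets of cells. All columns of values were mapped to a sample (0 left out). Python 3.11.15, numpy 2.4.6, scipy 1.17.1, pandas 2.3.3 and matplotlib 3.10.9 were used.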

Additional observations from a re-analysis of the deposited data

Results flagged for a closer look

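Among the 4 markers of the name and the genes with the highest or lowest ratios, there were 17 described here for which the ratio of Basal over Suprabasal cells had one sign in the normal library and the opposite sign in the wounded library, at least 2-fold in each. The other members of the lists were not counted here. Except Junb, the 17 had been named for a high ratio in normal Basal cells. Among all genes tested in both libraries, 972 were higher in normal Basal over Suprabasal cells, and 121 of these were lower in the wounded library. Of 413 genes lower in the normal library, 26 were higher in the wounded one. The log2 ratios, normal first, were as follows for the immediate-early genes: Junb (2.10 and -1.26), Atf3 (3.95 and -3.55), Btg2 (3.15 and -2.62), Nr4a1 (4.63 and -3.21) and Socs3 (3.59 and -1.83). Genes of secreted proteins and transcription factors did the same, as seen for Cck (2.32 and -3.59), Lpl (2.86 and -3.03), Irx4 (2.82 and -2.65), Nfil3 (3.12 and -1.88) and Cebpd (3.05 and -2.15). The remaining genes were Gm12840 (5.12 and -4.94), Ramp1 (1.48 and -4.32), Car8 (1.98 and -4.65), Kcnk2 (1.86 and -3.47), Heg1 (2.05 and -3.26), Cryab (1.61 and -5.39) and Chil1 (1.35 and -3.42). In all of them the normal Basal cells were the higher ones and the wounded Basal cells the lower ones. The difference was not tested, since there was 1 library per condition. The clusters were named separately in each library, and the condition, the library, the processing and the naming cannot be told apart.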

How the results depend on the processing

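No paired analysis was possible because each condition has 1 library, so no replicate could be left out either. Counts of genes that differed at least 2-fold moved most with the minimum of UMIs. At a minimum of 20 UMIs, 871 genes were higher and 1240 lower over the other cells, 1654 and 636 over Suprabasal, 1075 and 923 over Anal Canal, and 1605 and 1656 over Rectum. At 200 UMIs the counts were 239 and 316, 286 and 162, 263 and 224, and 323 and 189 in the same order, and 437 and 512 for wounded Basal over wounded Suprabasal. Centring on the median gene left 594 genes higher and 613 lower over Suprabasal, which turned the excess of higher genes. The share of Basal cells with a UMI of Junb was 38.9% when thinned to 1000 UMIs, 63.1% at 4000 and 77.4% without thinning, and that of ZsGreen1 was 5.06% without thinning. The correlation of Junb and Fos was 0.79 with per-cell CPM, and 176 genes had a variance over mean above 2 at 4000 UMIs. The other 76 values of this kind stayed within 1.5 times of the reported count or within 0.1 of the reported correlation. Without the 5 Basal cells with Chga, an alternative chosen after seeing the data, the ratio over the other cells turned to -0.86 for Pyy. For Chga, by which these cells were taken out, no UMI was left, and the ratio at a floor of 3 counts was -1.47, an upper bound, while Chgb and Pcsk1n had too few UMIs for a ratio. Among cells under 10% mitochondrial UMIs, Saa1 turned from -1.26 to 2.81, and the cause was not tested. Of 160 named or listed genes that differed at least 2-fold over the other cells, 150 still did with the other clusters weighted equally and 152 with means of per-cell values. Without the highest Scrublet scores, 157 of 158 did. These scores took in 41 named cells, of which 24 were Basal, although Basal cells make up 27.4% of the named normal cells. The automatic Scrublet threshold called 4 of 1548 barcodes, which is too few to rely on.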
